A study of Mus musculus with 2 samples.

Results

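The genes that copy DNA and the genes that build the centromere and kinetochore were measured on 2 one-colour microarrays, 1 of EpiSC and 1 of ELA-EpiSC. Members were taken by symbol from the gene names on the array: MCM and ORC proteins, GINS, Cdc6, Cdc7, Cdc45, Cdt1 and Gmnn, RFC and RPA subunits, Pcna, the replicative polymerases and primase, the CENP proteins whose symbol is Cenp and 1 letter, the Ndc80 complex and the kinases Bub1, Bub1b, Aurka, Aurkb and Plk1. This gave 72 genes out of 25851 detected on at least 1 array. A gene measured by several probes is represented by its brightest probe.

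E14Tg2A, an embryonic stem (ES) line from mice of strain 129/Ola, was the origin of both groups, and both were kept with FGF2 (12 ng/mL) and Activin A (20 ng/mL), the factors that hold cells in the state of the epiblast after implantation. EpiSC (epiblast stem cells) were obtained from ES cells directly. ELA-EpiSC were obtained from Epiblast-Like Aggregates, the clusters that ES cells form in suspension before neural differentiation. Neither group carries a transgene or deletion named in the labels, ES cells before the factors were not analysed here, and each RNA sample pooled 3 experiments, so each group has 1 value per probe and no spread over cultures. Against the titles, the source labels give an Argonaute immunoprecipitate for EpiSC and total RNA for ELA-EpiSC, in both cases of undifferentiated cells. The titles were followed.

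A cell must copy its genome once, and only once, per division. In G1 phase ORC, Cdc6 and Cdt1 load the ring of MCM proteins at origins. In S phase Cdc7, Cdc45, Mcm10 and GINS turn that ring into the active helicase, and polymerases with their sliding clamp extend the new strands. At mitosis the centromere, marked by the histone variant Cenpa, carries the inner kinetochore proteins, and these hold the Ndc80 complex that grips microtubules. The genes of replication are classic targets of E2F factors and peak around the start of S phase, whereas many kinetochore and mitotic kinase genes peak in G2 and M phase. Epiblast and pluripotent stem cells divide fast, with a short G1.

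All 72 genes were well above background on both arrays, and so were all 95 of their probes. Levels are log2 of normalized spot intensity, and differences are log2 ELA-EpiSC minus EpiSC, so that a positive value is higher in ELA-EpiSC. Levels of different probes are not on 1 scale and are not set against each other. Counts use the 71 members with a mean level of at least 7.5. Cdc7, the kinase that starts origin firing, was the dimmest member (6.74 in EpiSC and 6.59 in ELA-EpiSC, mean raw signals of 71.0 and 67.1 over a local background of 26) and is left out of the counts.

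With 1 array per group no test is possible. The error used here is the SD between replicate spots of a probe, which was 0.10 for a difference over 328 probes printed 10 times. It does not cover the choice of probe. Among 21 members with more than 1 detected probe, the range of the difference between probes had a median of 0.21. The spot SD does not cover labelling or culture either, and n is 1 per group for every value. Differences between the arrays are therefore differences between 2 pooled RNA samples.

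All 10 markers of primed pluripotent epiblast were detected on both arrays, 7 of them above 0. Tdgf1 was higher in ELA-EpiSC by more than 1 (1.19), none was lower by more than 1, and Dnmt3b differed by -0.84. Detection alone does not tell this state from others, since most markers of other cells were detected too. The arrays also differed in the markers of other cells. Of 8 endoderm markers, 8 were detected in EpiSC and 6 in ELA-EpiSC, with single levels between 6.26 and 13.6 against 6.06 and 12.7, and 5 were lower by more than 1 in ELA-EpiSC. All 8 mesenchyme and fibroblast markers were detected on both arrays and all were higher in ELA-EpiSC, 4 of them by more than 1. Col1a2 (0.08) and Thy1 (0.05) lay within the spot SD. The log2 of the summed level of the list was 15.1 against 13.7 for endoderm and 14.2 against 16.2 for mesenchyme. Such a sum mixes probes that are not on 1 scale and follows the brightest. For mesenchyme that was Vim, at 13.39 in EpiSC and 15.91 in ELA-EpiSC. Of 6 neural markers 5 were detected on each array, and 1 was higher by more than 1 in ELA-EpiSC. All 6 markers of naive ES cells were detected on both arrays, 2 of them lower by more than 1 in ELA-EpiSC. Ttr and Apoa1 (endoderm) were not well above background in ELA-EpiSC, and Pax6 (neural) on neither array. The part of these cells in the differences below was not tested. In such bulk RNA a smaller share of dividing cells and less RNA per cell cannot be told apart.

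The levels of the whole machinery were close in the 2 derivations. The median difference over the 71 members was 0.01, and that of all 16649 genes at the same minimum level was 0.00. There were 36 members above 0 and 35 below (50.7% above, against 50.2% of all genes). The members varied less than genes at large: their differences had an SD of 0.35, against 0.65 over all genes and 0.61 over 5293 genes between the lower and upper quartile of the members' mean levels (11.01 to 13.75). The median absolute difference was 0.19 for members, 0.28 for all genes and 0.29 for the genes at those levels.

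**Figure D1:**
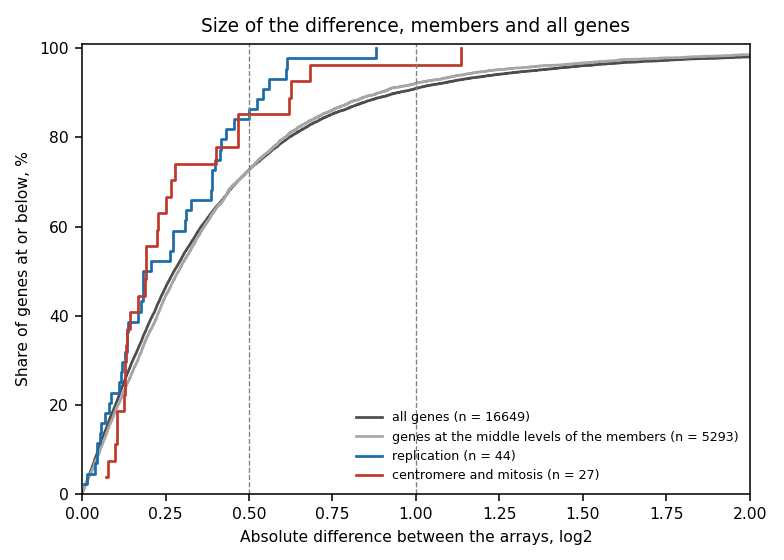
Share of genes (y axis, %) whose absolute log2 difference between the arrays is at or below the value on the x axis. Blue and red lines are the 44 replication and 27 centromere and mitosis members, the dark grey line all 16649 genes, the light grey line the 5293 genes at the middle levels of the members, and dashed lines mark 0.5 and 1. Both coloured lines run above both grey lines near 0.5, and 1 member lies past 1.

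A difference over 1, a 2-fold change, was passed by 1 of 71 members (1.41%), where 9.0% of all genes passed it in either direction and 4.46% in the direction of that member. A difference over 0.5 was passed by 10 members (14.1%), against 27.3% of all genes and also 27.3% of the genes at the middle levels. Of these, 4 were higher in ELA-EpiSC (5.63%, against 13.6% of all genes) and 6 were lower (8.45%, against 13.7%). The higher members were Cenpt, Orc5, Rfc1 and Pole, and the lower ones Aurkb, Rpa3, Cenpu, Cenpw, Gmnn and Orc1. A difference within the spot SD was found in 13 members (18.3%) and in 20.3% of all genes.

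Aurkb encodes the Aurora kinase of the chromosomal passenger complex, which corrects wrong attachments of microtubules. It was the member past 1, at 8.80 in EpiSC and 7.66 in ELA-EpiSC (difference -1.13, 2.20-fold). Its mean raw signal fell from 374 to 181, so it is a dim value, and it rests on 1 probe printed once per array (mm9 chr11:68865105-68865164) with a GC content of 20%. The difference ran from -1.45 to -0.60 over the alternative ways of processing. Its paralog Aurka, the kinase of the spindle poles, was at 14.09 and 14.22, a difference of 0.13.

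Rpa3, the smallest subunit of the complex that coats single-stranded DNA, had the next largest difference. Its level was 14.22 in EpiSC and 13.34 in ELA-EpiSC (difference -0.88, 1.84-fold), with raw signals of 17963 and 11217, far above background. Its only probe crosses an exon junction (mm9 chr6:8206247-8206753). Cenpu and Cenpt, of the inner kinetochore, followed Rpa3 among the members that have a promoter window in RefSeq, with a difference of -0.68 for Cenpu and of 0.62 for Cenpt.

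The promoters of these 3 genes are shown because their differences were the largest among members with a window in the RefSeq table (assembly GRCm38.p6). Each sequence is the 250 bases before the start of the gene, read in the direction of the gene, and capitals mark CCAAT on the other strand. The windows are chr6:8259142-8259391 on the minus strand for Rpa3, chr8:46551819-46552068 on the plus strand for Cenpu and chr8:105852009-105852258 on the minus strand for Cenpt.
Rpa3: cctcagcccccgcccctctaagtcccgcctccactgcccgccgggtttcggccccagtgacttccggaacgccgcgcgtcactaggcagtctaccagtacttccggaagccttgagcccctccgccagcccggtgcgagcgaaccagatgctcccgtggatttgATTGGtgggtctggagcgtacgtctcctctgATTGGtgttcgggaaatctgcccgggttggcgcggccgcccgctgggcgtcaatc
Cenpu: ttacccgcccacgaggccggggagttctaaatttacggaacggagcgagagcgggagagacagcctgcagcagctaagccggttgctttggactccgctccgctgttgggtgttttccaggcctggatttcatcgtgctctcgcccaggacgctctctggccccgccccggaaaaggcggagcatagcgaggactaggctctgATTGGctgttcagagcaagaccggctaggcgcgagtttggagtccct
Cenpt: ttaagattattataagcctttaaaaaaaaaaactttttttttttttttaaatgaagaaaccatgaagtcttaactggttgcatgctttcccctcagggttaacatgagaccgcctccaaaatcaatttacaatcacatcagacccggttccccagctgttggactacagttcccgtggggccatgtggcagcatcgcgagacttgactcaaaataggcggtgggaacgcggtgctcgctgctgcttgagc

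Rpa3 held 2 such matches, starting 86 and 55 bases before the gene, Cenpu held 1 at 47 bases, and Cenpt held none of the letters searched. The Rpa3 stretch had a GC content of 66.4% and 25 CpG, that of Cenpu 61.2% and 20 CpG, and that of Cenpt 44% and 9 CpG.

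The promoters of the replication genes and of the mitotic genes differed in how often they held E2F-type and CHR-type letters. The windows searched were the 250 bases before and 50 after the start, on both strands, for E2F-type letters (TTTCCCGC, TTTCGCGC, TTTGCCGC or TTTGGCGC), for letters of the CHR element of late cell cycle promoters (TTTGAA or TTCGAA) and for CCAAT. RefSeq windows were found for 62 of the 72 members (71 windows) and not for the other 10, Aurkb and Pole among them. E2F-type letters stood in 38.6% of the 44 replication windows and in 11.1% of the 27 centromere and mitosis windows, beside 3.83% of 11944 windows of protein-coding genes at the minimum level and 2.26% of all 32851 windows. CHR-type letters had the opposite order, with 18.2% and 44.4%, beside 13.6% and 19.2%. CCAAT stood in 59.1% and 70.4%, beside 37.6% and 37.4%. These are descriptions of letters in a window, not of binding.

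**Figure D2:**
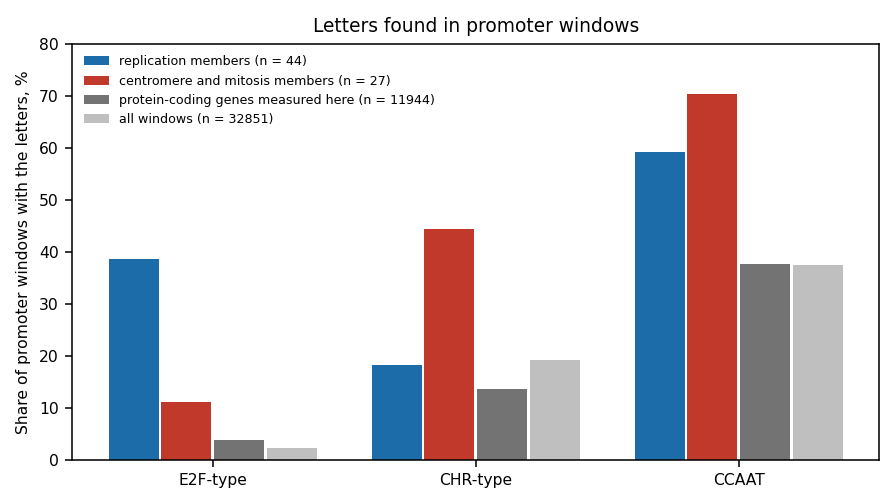
Share of promoter windows (y axis, %) that hold E2F-type letters, CHR-type letters or CCAAT (x axis). Blue bars are the replication members, red bars the centromere and mitosis members, dark grey bars protein-coding genes at the minimum level and light grey bars all windows. The blue bar is highest for E2F-type letters (38.6%) and the red bar for CHR-type letters (44.4%).

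Among the licensing genes 8 of 13 with a window held E2F-type letters, beside 434 of 9306 protein-coding genes at the minimum level. Of the MCM ring, Cdc6, Cdt1, Orc1 and Pcna, those with a match before the start are shown so that the shared letters can be seen. Capitals mark the E2F-type letters on either strand, with up to 15 bases on each side, read in the direction of the gene. They were chosen after their values were seen, lie on GRCm38.p6 and were read from chr8:75109341-75109378 (Mcm5), chr1:128359793-128359830 (Mcm6), chr5:138172026-138172063 (Mcm7), chr11:98907998-98908035 (Cdc6) and chr4:108579412-108579449 (Orc1), the Mcm6 and Mcm7 genes being on the minus strand.
Mcm5: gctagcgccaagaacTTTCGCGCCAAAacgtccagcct
Mcm6: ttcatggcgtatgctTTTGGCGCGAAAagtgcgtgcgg
Mcm7: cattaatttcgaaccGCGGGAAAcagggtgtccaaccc
Cdc6: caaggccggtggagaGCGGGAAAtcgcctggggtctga
Orc1: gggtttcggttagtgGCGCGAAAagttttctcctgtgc

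The Mcm5 and Mcm6 stretches each hold overlapping E2F-type letters of both strands. The genes shown did not all lie on the same side of 0. Mcm5, Mcm6 and Mcm7 differed by 0.13, 0.09 and 0.26, Cdc6 by -0.04 and Orc1 by -0.56. The values of Mcm6 and Cdc6 lay within the spot SD. Apart from spike-in scaling, the sign changed in 1 alternative for Mcm5 and Cdc6, in 2 for Mcm6 and Mcm7 and in none for Orc1. The other licensing genes with E2F-type letters, Mcm3, Cdt1 and Orc3, differed by 0.41, 0.13 and -0.08.

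Origin licensing was the largest replication group, with 15 genes, a median of 0.13 and 10 genes above 0. The MCM ring, which is the core of the helicase, was slightly higher in ELA-EpiSC at all of its 6 subunits. The difference was smallest for Mcm6 (15.71 in EpiSC and 15.79 in ELA-EpiSC, 0.09, within the spot SD) and Mcm5 (14.41 and 14.54, 0.13). It was 0.18 for Mcm4 and 0.26 for Mcm7. It was largest for Mcm2 (13.78 and 14.17, 0.39) and Mcm3 (15.27 and 15.68, 0.41), and the other Mcm3 probe gave 0.19. The shared direction depends on scaling. After normexp with 75th percentile scaling 2 of 6 subunits stayed above 0, and with the processed signal scaled in that way 3 of 6, whereas 6 of 6 were above 0 in the deposited table and with median scaling.

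The origin recognition complex split. Orc5, a subunit of its ATPase core, was at 10.69 in EpiSC and 11.30 in ELA-EpiSC (difference 0.61), the highest of the licensing genes. Orc2 differed by 0.43 (10.84 and 11.27) and Orc6 by 0.04. Orc1, the subunit whose level rises and falls with the cell cycle, was lower in ELA-EpiSC, at 10.07 and 9.52, a difference of -0.56. Orc3 and Orc4 differed by -0.08 and -0.14, although the other probe of Orc3 gave 0.03 and that of Orc4 -0.53.

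The loaders Cdc6 and Cdt1 were near 0, at -0.04 (10.72 and 10.68) and 0.13 (14.03 and 14.16), but the other Cdc6 probe gave -0.22. Gmnn encodes geminin, which binds Cdt1 and blocks a new round of licensing. It had the lowest value of the licensing genes, 12.41 in EpiSC and 11.80 in ELA-EpiSC (difference -0.61), and its other probe gave -0.22. Cdt1 and its inhibitor thus stood on opposite sides of 0, by 0.13 and -0.61.

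Origin firing had a median of -0.20 over 6 counted genes, with 2 above 0. The helicase partners Mcm10 and Cdc45 were the higher ones. Mcm10, which helps the helicase to start, was at 12.95 and 13.45, a difference of 0.50, and Cdc45, with raw signals of 349 and 573, had a difference of 0.39. GINS, which joins Cdc45 and the MCM ring in the active helicase, was lower in ELA-EpiSC at all of its 4 subunits.

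The difference was -0.31 for Gins3 (15.61 and 15.30), -0.31 for Gins1 (12.17 and 11.86), -0.27 for Gins2 (12.03 and 11.76) and -0.12 for Gins4 (13.20 and 13.08). With median scaling 1 of the 4 was above 0, and with scaling to spike-in RNA all 4 were. Relative to the median of all genes, no GINS subunit was above it in any of the 14 alternatives that change a difference, and between 3 and 6 MCM subunits were. The Gins3 probe shares a run of 20 bases with probes named Gm7555 and LOC102641744, so its signal may not be of Gins3 alone. The MCM paralogs outside the ring, Mcm8 and Mcm9, which serve in recombination, differed by 0.33 (8.61 and 8.94) and -0.05 (8.52 and 8.46).

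**Figure D3:**
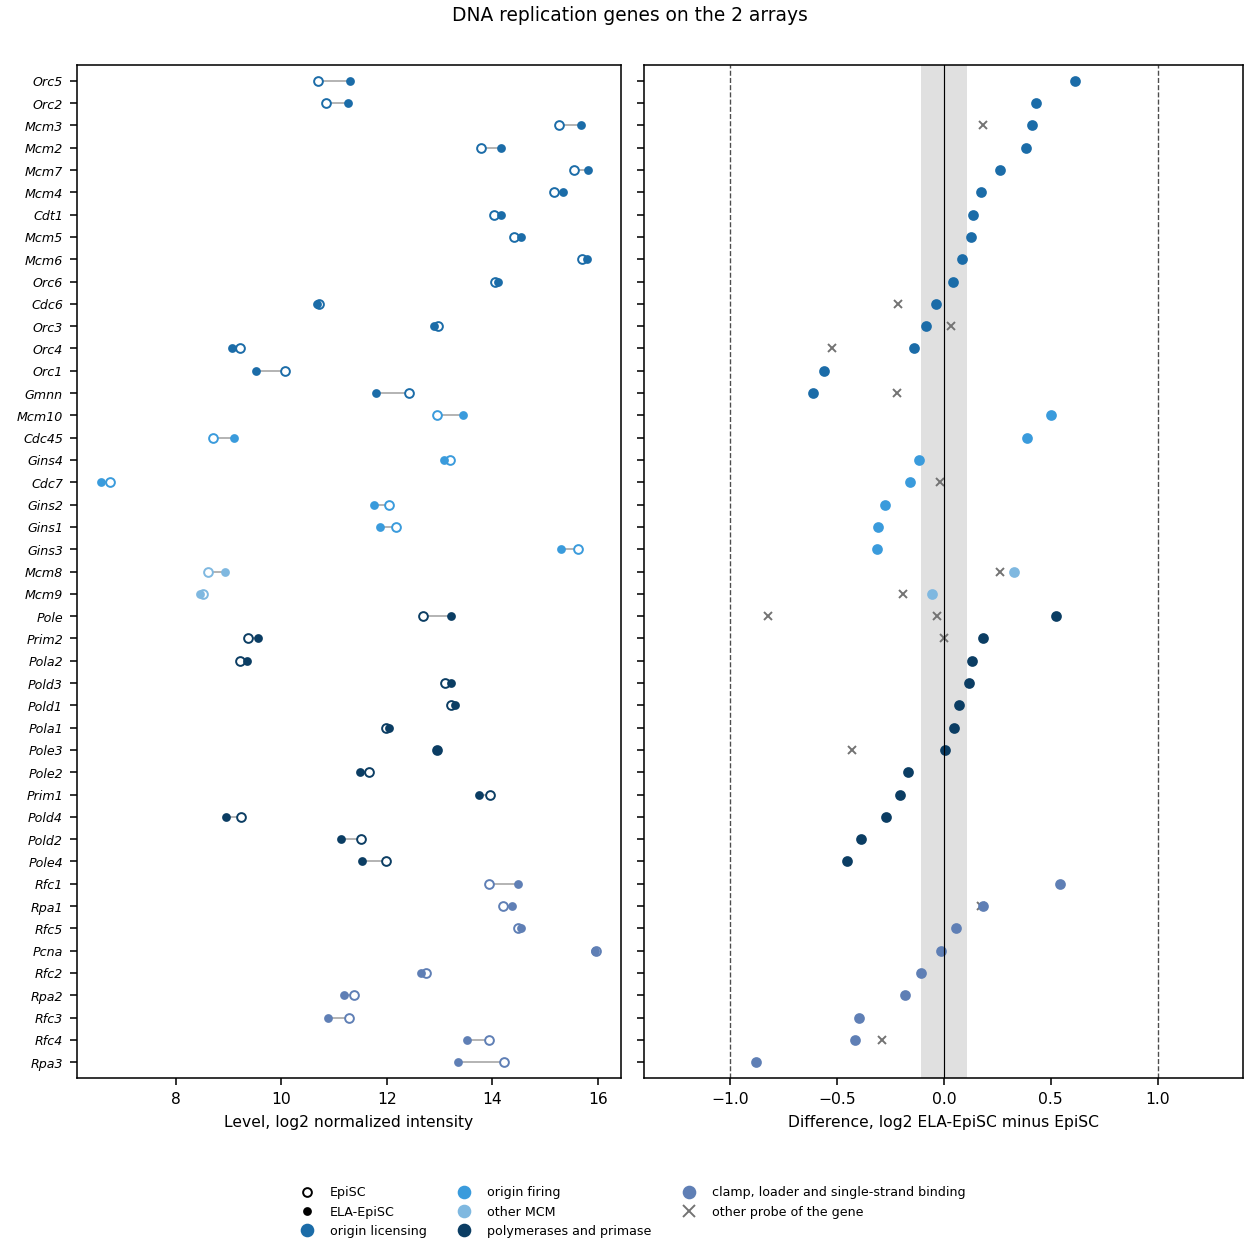
Replication genes grouped by role. The left panel gives the level (log2 normalized intensity) in EpiSC (open points) and ELA-EpiSC (filled points), and the right panel the difference of the brightest probe (points) and of the other probes of the gene (crosses). The grey band is the spot SD of 0.10 on either side of 0, and dashed lines mark -1 and 1. No replication gene lies past the dashed lines, Rpa3 lies nearest to one, and the probes of Pole lie far apart.

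The polymerases and primase (12 genes) had a median of 0.03 and 7 genes above 0. The catalytic subunit of polymerase epsilon, the leading-strand enzyme, was the highest, with Pole at 12.69 in EpiSC and 13.21 in ELA-EpiSC (difference 0.52). Its 3 probes do not give the same direction, since the others gave -0.82 and -0.03, and the mean over the probes was -0.11. The small subunit Pole4 was the lowest of the group, at 11.97 and 11.52, a difference of -0.45. Pole2 and Pole3 differed by -0.17 and 0.01, and the other Pole3 probe gave -0.43.

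The other polymerases were near 0 at their catalytic subunits. Polymerase alpha, which starts each new strand with primase, had Pola1 at 0.05, Pola2 at 0.13, Prim1 at -0.20 and Prim2 at 0.18. The other Prim2 probe gave -0.0007. Polymerase delta, the enzyme of the lagging strand, had Pold1 at 0.07 (13.22 and 13.29) and Pold3 at 0.12. Its small subunits were lower in ELA-EpiSC, Pold2 by 0.39 on the log2 scale (11.52 and 11.13) and Pold4 with a difference of -0.27 (9.23 and 8.96).

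The clamp, clamp loader and single-strand binding genes (9) had a median of -0.11, with 3 above 0. Pcna, the sliding clamp, was at 15.97 in EpiSC and 15.95 in ELA-EpiSC (difference -0.01), well within the spot SD. Its loader RFC differed by subunit. Rfc1, the large subunit, was the highest of the group at 13.94 and 14.49, a difference of 0.54. Rfc5 differed by 0.06 and Rfc2 by -0.11.

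Rfc3 and Rfc4 were lower in ELA-EpiSC, Rfc3 at 11.29 and 10.89 (-0.40) and Rfc4 at 13.94 and 13.52 (-0.42, and -0.29 at its other probe). RPA also differed by subunit, with its large subunit highest and its small one lowest. Rpa1 differed by 0.18 at 1 probe and 0.17 at the other, Rpa2 by -0.18 and Rpa3 by -0.88. RPA works as a complex of these 3 proteins in equal number, and here its transcripts differed from each other by up to the distance between 0.18 and -0.88.

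The centromere and inner kinetochore genes (14) were mostly lower in ELA-EpiSC, with a median of -0.13 and 3 genes above 0. Relative to the median of all genes, 2 or 3 of the 14 were above it in every alternative run. Cenpa, the histone variant that marks the centromere, was at 13.71 in EpiSC and 13.31 in ELA-EpiSC (difference -0.40). Cenpb, which binds a motif in centromeric satellite DNA, differed by -0.14 and by -0.56 at its other probe.

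The module of Cenph, Cenpi, Cenpk and Cenpm was lower at all 4 genes, by between -0.10 for Cenpm and -0.47 for Cenpk (12.39 and 11.93). With median scaling 3 of these 4 genes were above 0, and none was above the median of all genes in any alternative. The module of Cenpo, Cenpp, Cenpq and Cenpu had 1 of 4 above 0. Cenpu had the lowest value of the inner kinetochore, at 10.81 and 10.12, a difference of -0.68, but its other probe gave -0.07.

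Cenpo and Cenpq were printed 10 times on each array. Over these spots Cenpo differed by 0.08 ± 0.13 (SD of 10 spot pairs) with 7 pairs above 0, and Cenpq by -0.13 ± 0.12 with 8 pairs below 0. The other probes gave -0.25 for Cenpo, -0.35 for Cenpq and, against -0.13, 0.09 for Cenpp.

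Direct binding partners in the inner kinetochore did not always lie on the same side of 0. Cenpt and Cenpw form a histone-fold pair that links the centromere to Ndc80. Cenpt was the highest member of all, at 10.79 in EpiSC and 11.42 in ELA-EpiSC (difference 0.62), and Cenpw was at 13.91 and 13.29, a difference of -0.62. Cenpn and Cenpl, which bind each other and the Cenpa nucleosome, differed by 0.47 (10.22 and 10.69) and -0.13. In each pair 1 gene was above and 1 below the median of all genes in every alternative run.

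The other CENP proteins work outside the constitutive inner kinetochore, and all 4 were higher in ELA-EpiSC. Cenpe, the kinesin that moves chromosomes to the spindle equator, was at 13.37 and 13.63, a difference of 0.27. Cenpj, a centriole protein, differed by 0.25 and Cenpv by 0.23. Cenpf, a large protein of the outer kinetochore, was the lowest of the 4 at 0.07, within the spot SD. Its probe was dim, with raw signals of 139 and 173, and its sign changed in 1 alternative apart from spike-in scaling.

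The Ndc80 complex, which holds microtubules, had 3 of 4 subunits above 0 under all settings but scaling to spike-in RNA, where all 4 were. Nuf2 was at 10.87 and 11.15, a difference of 0.28, Spc24 differed by 0.22 and Ndc80 by 0.19. Spc25 was the lowest, at 14.22 and 14.09, a difference of -0.14. The other probes of Nuf2 gave 0.27 and -0.50, and the Ndc80 probe shares 20 bases with a probe named 2700099C18Rik.

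Of the kinases, 3 of 5 were above 0. Bub1, a checkpoint kinase that waits for attached kinetochores, was printed 10 times, and over 9 spot pairs it differed by 0.19 ± 0.10 (SD), with 9 pairs above 0. With each array's spots averaged first, the value used in the counts, it differed by 0.17. Bub1b, its pseudokinase relative, was at 12.68 and 12.87, a difference of 0.19, the highest of the group by the values used in the counts. Plk1, a kinase of entry into mitosis, differed by -0.11 (15.02 and 14.91), and Aurkb was the lowest, as given above.

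**Figure D4:**
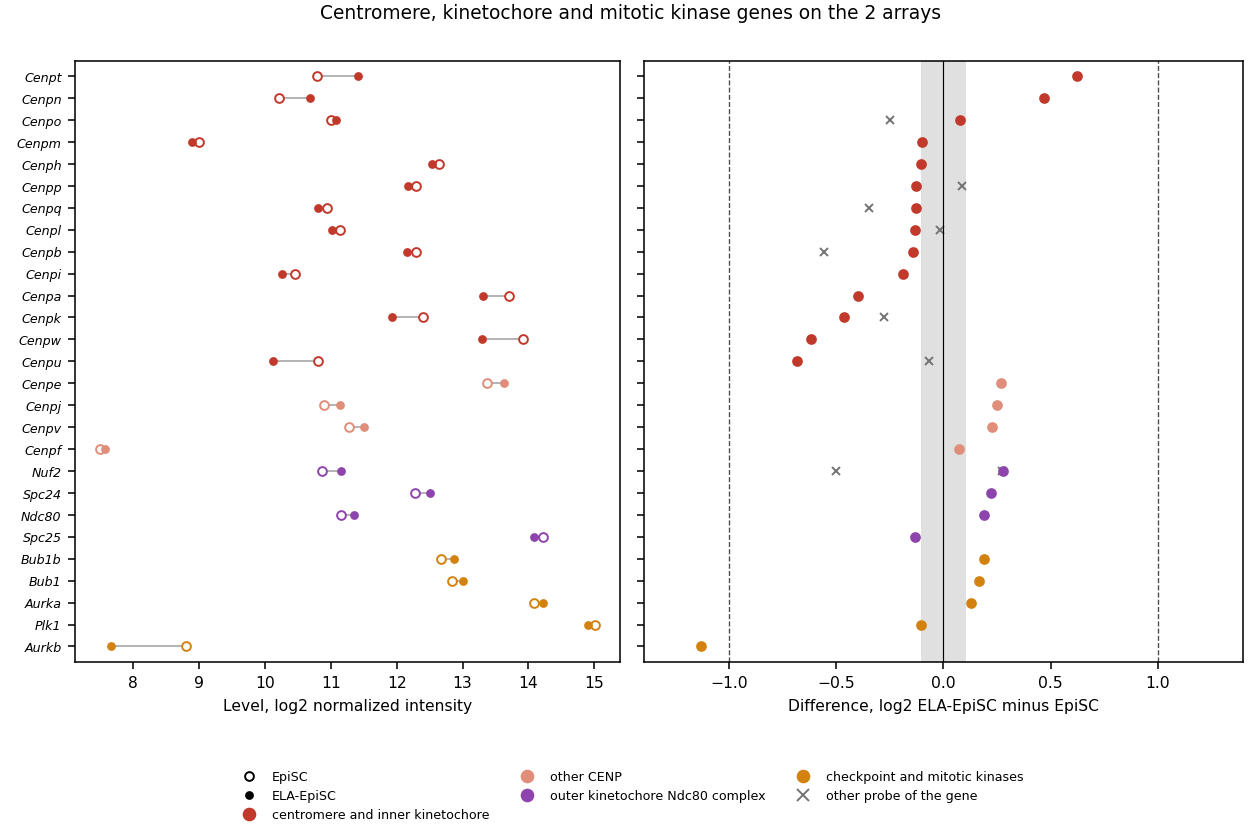
Centromere, kinetochore and mitotic kinase genes grouped by role. The left panel gives the level (log2 normalized intensity) in EpiSC (open points) and ELA-EpiSC (filled points), and the right panel the difference of the brightest probe (points) and of the other probes (crosses), with the spot SD of 0.10 as a grey band and dashed lines at -1 and 1. Of the 14 inner kinetochore genes 3 lie right of 0, all 4 other CENP genes do, and Aurkb lies past -1.

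Several probes of a gene did not always tell the same story. Of 21 members with more than 1 detected probe, 14 had the same direction at all probes and 7 did not. The range between probes of a gene had a median of 0.21 and reached 1.34 for Pole. The other 51 members rest on 1 probe. Of the 72 members, 45 kept their direction under every alternative apart from scaling to spike-in RNA.

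Spike-in RNA, added to the labelling reaction in a fixed amount, read lower in ELA-EpiSC at all 8 detected probes, by a mean difference of -0.54 (-0.86 to -0.26). Scaled to it, the median of all genes moved to 0.54 and 65 of 71 members were above 0. All directions above are therefore relative to the bulk of genes on the array.

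Genes that work with the members but do not match the rule were read from lists. The replication partners (30 counted) had a median of 0.08, 20 above 0 and 2 past 1, both lower. Of all genes, 9.0% were past 1 in either direction and 4.46% were past 1 and lower. Fen1, the nuclease that trims Okazaki fragments, was at 14.20 in EpiSC and 13.14 in ELA-EpiSC (-1.06), and Rnaseh2c, a subunit of the enzyme that removes ribonucleotides, at 14.95 and 13.92 (-1.03). Lig1, the ligase that seals the fragments Fen1 has trimmed, was the highest at 14.22 and 15.17 (0.95), followed by Mtbp, a firing factor, at 12.09 and 12.85 (0.76). Fen1 and Lig1, consecutive enzymes that both bind Pcna, were set together after their values were seen. They are the lowest and the highest of the list, so their opposite directions follow from how they were picked. Pcna differed by -0.01.

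The nucleotide supply genes (11 counted) had a median of 0.04, with 6 above 0. Dck, a salvage kinase, differed by -0.68 and Dut, which removes dUTP, by -0.33. Dctd and Samhd1 were the highest at 0.32 and 0.23. None was past 1.

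The kinetochore partners (32 counted) had a median of 0.10 and 19 above 0, with none past 1. Itgb3bp, the inner kinetochore protein Cenp-R, and Apitd1, Cenp-S, were the lowest at -0.75 and -0.65. Nsl1 and Dsn1, both of the Mis12 complex that joins the inner kinetochore to Ndc80, were the highest at 0.59 and 0.56. Cenpc1, the inner kinetochore protein Cenp-C, and Stra13, Cenp-X, are in the same list, at 0.08 and -0.44, and were named after their values were seen.

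The genes of G2 and M phase (27 counted, Cenpe among them) had a median of 0.15 and 22 above 0, with none past 1. Of all genes, 50.2% were above 0. The values of the lists are given for the main processing only, and counts above 0 moved with scaling among the members. Anln, a cytokinesis scaffold, differed by 0.65 and Fzr1, an activator of the anaphase-promoting complex, by 0.60. Kif20a, a kinesin of cytokinesis, and Cdk1 were the lowest at -0.41 and -0.13. Of the E2F and pocket protein genes (16 counted, median 0.08, 9 above 0), Rb1 was higher by more than 1, at 9.75 and 10.93 (1.18), and E2f4 by 0.63. Rb1 was the only 1 of the 16 past 1, beside 9.0% of all genes in either direction. E2f2 and E2f1, which activate replication genes, were the lowest at -0.95 (10.75 and 9.80) and -0.45.

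The housekeeping genes (9 counted) had a median of 0.02, with values from -0.16 to 0.24, a range narrower than that of any other list here.

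**Figure D5:**
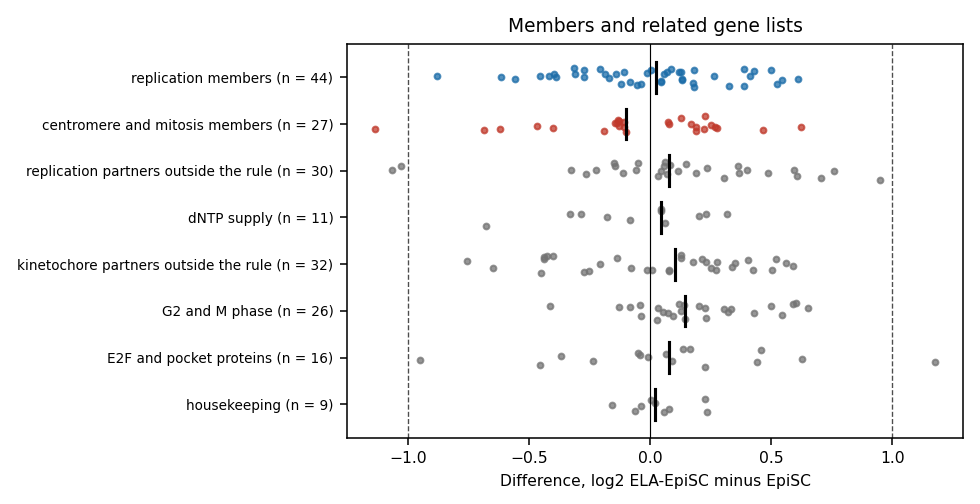
Difference (x axis, log2 ELA-EpiSC minus EpiSC) of each counted gene in the members and in the lists of genes outside the rule, 1 row per list. Points are genes, black bars medians and dashed lines -1 and 1, and vertical spread within a row carries no value. All medians lie between -0.10 and 0.15, and the points past a dashed line are Aurkb, Fen1, Rnaseh2c and Rb1.

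The members are spread over 19 chromosomes. With the main processing, the median difference of the long genes of the machinery and that of the short ones had opposite signs. The split was not run under the alternatives. The median of all 71 members moved to -0.12 with 75th percentile scaling after normexp and to 0.11 with median scaling, so these signs may depend on scaling. The 36 members whose gene spans at most 16.2 kb had a median difference of -0.11, with 12 above 0, and the 35 longer ones a median of 0.13, with 24 above 0. Across the 71 members the difference and log2 gene span had r = 0.34 (rho = 0.37), and r = 0.32 without Aurkb, beside r = 0.10 (rho = 0.17) across 12017 genes with a span. This is a description across genes that share the 2 arrays, chosen after the values were seen.

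The base composition of the probe went with the difference in the centromere and mitosis genes and less so elsewhere. Across these 27 genes the difference and the GC content of the probe had r = 0.64 (rho = 0.48), against r = -0.04 in the 44 replication genes and r = -0.01 in all genes. Aurkb, whose probe has a GC content of 20%, carries much of it: without Aurkb r was 0.39 (rho = 0.41), and without Aurkb and Cenpt 0.35. The parts of probe composition and gene length in the differences were not tested.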

How the data were processed

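RNA of EpiSC and ELA-EpiSC was measured on 2 Agilent SurePrint G3 mouse arrays, 1 per group, on 1 slide in 1 scan. Per the labels, 50 ng of RNA was labelled with Cy3. Linear spot intensity, not normalized, is what the deposited scanner files give, made with Feature Extraction 10.7.3.1 per the file headers and 9.1 per the submitters' processing notes. A table of log2 values from the authors, background-corrected and quantile normalized with limma, served as an alternative. The median signal was 71.7 in EpiSC and 79.1 in ELA-EpiSC over a median background of 26 and 25, and 36645 and 36206 probes (65.8% and 65.0%) were well above background. The number of arrays limits the precision.

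Mean signals were background-corrected by normexp (offset 50, limma 3.58.1 in R 4.3.3). Control spots and flagged spots (158 and 117) were left out, log2 values were quantile normalized, and spots of a probe were averaged. Dim genes have their differences compressed by the offset, and a shift common to all genes is hidden by the quantile step. Detection of a probe required that the share of its spots well above background was 0.5 or more. Groups came from the sample titles. Differences were counted past 1 and 0.5 at a mean log2 of at least 7.5. All members could be named, with the highest and lowest of each role always given, and from each list outside the rule the 2 genes of largest difference per direction. Grouping into complexes followed their textbook subunits. The pipeline was tested on simulated data. Members, lists and alternatives were chosen with earlier results of these data known. Probe coordinates are mm9 and were not converted. Which exon or UTR a probe lies in was not analysed here. RefSeq (GRCm38.p6) gave gene spans for all 72 members and the promoters.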

Additional observations from a re-analysis of the deposited data

How the results depend on the processing

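No paired analysis was possible because no group has more than 1 array. The count of members past 1 and lower in ELA-EpiSC (1) became 0 with median scaling, with scaling to spike-in RNA and with a minimum level of 9, and was 5 at 1.5-fold. The count past 1 and higher (0) became 6 with scaling to spike-in RNA and 2 at 1.5-fold. Members above 0 (36) were 65 with spike-in scaling, 51 with median scaling, 28 with either 75th percentile scaling and 33 to 37 otherwise. The median of the members (0.01) was -0.11 with the processed signal minus its 75th percentile, -0.12 with 75th percentile scaling after normexp, 0.11 with median scaling and 0.54 with spike-in scaling. The median of the replication members (0.02) was -0.10, -0.11 and 0.56 with the processed signal, 75th percentile and spike-in settings. The median of the centromere and mitosis members (-0.10) was 0.11 with median scaling and 0.44 with spike-in scaling. These settings move the median of all genes too, to -0.08, -0.07, 0.15 and 0.54 in the order processed signal, 75th percentile, median and spike-in, and the number of members above that median was 36 and ranged from 33 to 37 over the alternatives. Signal over background limits Cdc7, Cenpf and Aurkb most.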
